A study of Mus musculus with 16 samples.

Results

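Genes used as markers of cell senescence were followed in aged mouse kidney and liver. They were chosen by name for their known roles: *Cdkn1a*, *Cdkn2a*, *Cdkn2b*, *Trp53*, *Mdm2*, *Ccnd1*, *Lmnb1*, *Hmgb1* and *Glb1*, 9 of the 24984 genes counted. RNA came from wild-type (WT) female C57BL/6 mice labelled 24 months old, which were given by vein the adeno-associated virus vector AAV8 carrying a short hairpin RNA against *Fos* (shFOS) or a non-targeting hairpin (shNT). By the study's methods the mice were injected at 24 months and tissues were collected 3 months later. Each combination of tissue and treatment had 4 libraries, 16 in all, and every control thus also carried a virus and a hairpin. Neither the promoter that drives the hairpin nor the share of cells it reached is given in the sources used here, and each library is whole tissue, so that fewer cells expressing a gene and less RNA per cell cannot be told apart. No uninjected mice and no young mice were analysed here, so the values do not say whether a member differs with age.

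Senescence is a lasting exit from the cell cycle. Signals such as DNA damage stabilise p53 (*Trp53*), which induces the CDK inhibitor p21 (*Cdkn1a*) and its own ubiquitin ligase *Mdm2*, while the Ink4 locus supplies p16Ink4a and p19Arf (both from *Cdkn2a*) and p15Ink4b (*Cdkn2b*). The Ink4 proteins block CDK4 and CDK6, the partners of cyclin D1 (*Ccnd1*), p21 blocks CDK2, and RB proteins then stay active, while p19Arf restrains MDM2. Loss of lamin B1 (*Lmnb1*), release of the chromatin protein HMGB1 (*Hmgb1*) from the nucleus and higher activity of the lysosomal beta-galactosidase encoded by *Glb1* are used as further markers, and the last of them underlies the beta-galactosidase stain. In kidney and liver p21 is also induced by acute stress in cells that do not become senescent. AP-1, the factor that contains FOS, is known to act on *Ccnd1* and on other cell cycle genes.

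Gene positions are from GENCODE M21 on GRCm38, the assembly also called mm10. *Cdkn1a* (ENSMUSG00000023067.14) lies on the + strand of chromosome 17 from 29090976 to 29100727. *Cdkn2a* (ENSMUSG00000044303.6, 89274471 to 89294653) and *Cdkn2b* (ENSMUSG00000073802.5, 89306299 to 89311039) are neighbours on the - strand of chromosome 4. *Trp53* (ENSMUSG00000059552.13) is on chromosome 11 from 69580359 to 69591873 and *Mdm2* (ENSMUSG00000020184.15) on chromosome 10 from 117688875 to 117710758. *Ccnd1* (ENSMUSG00000070348.5) is on chromosome 7 from 144929931 to 144939925, *Hmgb1* (ENSMUSG00000066551.12) on chromosome 5 from 149046702 to 149184489 and *Glb1* (ENSMUSG00000045594.10) on chromosome 9 from 114401076 to 114474898. Reads were counted without strand, so that reads from the opposite strand cannot be told apart where *Ccnd1* overlaps LTO1 and *Cdkn1a* a gene model with no symbol of its own. *Glb1* overlaps *Tmppe* on its own strand, *Hmgb1* overlaps *Uspl1* and several non-coding genes and has 10 annotated pseudogenes named Hmgb1-ps, and the counts of these 4 members are uncertain to that extent.

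RefSeq promoter windows of 300 bases, from 250 bases before a transcript start to 50 after it (build GRCm38.p6), were found for 7 of the 9 members, 10 windows in all, and none for *Ccnd1* or *Lmnb1*. They were searched on both strands for the AP-1 site TGANTCA and the related CRE site TGACGTCA, because the treatment targets an AP-1 subunit, and for CATG followed by 6 bases of any kind and CATG again, a pair of p53 core letters whose spelling was chosen after the *Cdkn1a* window had been read. The 3 windows with a match are shown, with the match in capitals. That of *Cdkn1a* is chr17:29090729-29091028 on the + strand, that of *Cdkn2b* chr4:89310983-89311282 on the - strand and that of *Glb1* chr9:114400828-114401127 on the + strand.
*Cdkn1a*: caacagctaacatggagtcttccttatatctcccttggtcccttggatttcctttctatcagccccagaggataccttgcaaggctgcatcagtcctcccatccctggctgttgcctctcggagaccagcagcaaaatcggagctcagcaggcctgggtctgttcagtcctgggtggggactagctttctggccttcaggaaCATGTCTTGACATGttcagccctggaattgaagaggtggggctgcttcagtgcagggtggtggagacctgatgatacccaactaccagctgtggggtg
*Cdkn2b*: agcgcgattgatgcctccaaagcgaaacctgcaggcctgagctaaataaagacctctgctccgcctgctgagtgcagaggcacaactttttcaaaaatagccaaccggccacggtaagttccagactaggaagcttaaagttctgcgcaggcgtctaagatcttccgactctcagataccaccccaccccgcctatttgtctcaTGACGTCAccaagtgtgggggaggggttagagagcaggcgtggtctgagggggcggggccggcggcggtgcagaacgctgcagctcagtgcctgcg
*Glb1*: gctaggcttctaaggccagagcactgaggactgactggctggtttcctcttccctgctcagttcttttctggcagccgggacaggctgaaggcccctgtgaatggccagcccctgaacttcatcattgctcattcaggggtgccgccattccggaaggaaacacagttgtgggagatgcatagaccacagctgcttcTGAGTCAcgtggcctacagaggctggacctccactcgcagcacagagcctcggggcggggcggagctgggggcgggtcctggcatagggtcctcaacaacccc
The *Cdkn1a* window shown holds the paired core, found in 0.712% of 32851 windows of the same length. A second *Cdkn1a* window, chr17:29093519-29093818, held no match. The *Cdkn2b* window holds the CRE site, found in 1.79%, and the *Glb1* window the AP-1 site, found in 7.81%. A match describes the letters only, and no binding was measured in these libraries.

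Reads counted on genes ranged from 14194543 to 15534665 in kidney libraries and from 16652150 to 18300277 in liver libraries. The targeted gene *Fos* was lower on average in both tissues, at 5.37 ± 1.02 and 3.23 ± 0.929 CPM (reads of a gene per 1000000 counted reads) in shNT and shFOS kidneys (SD, n = 4; log2 fold change -0.73, edgeR adjusted p = 0.0947) and 2.51 ± 1.08 and 1.82 ± 0.637 in livers (-0.47, edgeR adjusted p = 0.775), without passing the threshold of 0.05 in either. The tissue labels fitted their markers, with the 6 kidney tubule markers summing to 11040 CPM or more in every kidney library and at most 2.33 in any liver library. The shNT library numbered 4 stood apart in both tissues. Its 4 neutrophil markers summed to 22.2 CPM in kidney, where the other shNT libraries held 2.43 to 2.87, and to 94.5 in liver, where the others held 11.0 to 24.5. Its 5 hepatocyte markers summed to 42580 CPM in liver, against 116700 to 186000 in the other shNT livers, and its 6 B cell and plasma cell markers were the lowest of the shNT libraries in both tissues, at 19.1 and 3.55 CPM. In kidney the shFOS library numbered 1 also mattered, since leaving it out raised the number of genes called by edgeR from 0 to 4173. Values without one of these libraries are given beside several results of members. Where leaving out a library turned the direction of a member's result, its range is given at the end. The part of the markers was not tested.

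Levels were first compared between members per kilobase of exon (RPKM), the only scale on which different genes are set side by side. In shNT kidneys *Glb1* was highest at 30.0 ± 5.17 RPKM (SD, n = 4), followed by *Ccnd1* at 23.9 ± 3.31, *Hmgb1* at 17.9 ± 1.70 and *Cdkn1a* at 10.6 ± 6.37. *Mdm2* (8.39 ± 1.11 RPKM) and *Trp53* (8.20 ± 0.534) were next, then *Lmnb1* (2.32 ± 0.616) and *Cdkn2b* (2.11 ± 0.247), and *Cdkn2a* was lowest at 0.218 ± 0.0943. Neighbours in this order had overlapping ranges of mean ± SD except at the steps from *Ccnd1* to *Hmgb1*, from *Trp53* to *Lmnb1* and from *Cdkn2b* to *Cdkn2a*. In shNT livers the order was *Ccnd1* (24.0 ± 14.99 RPKM), *Hmgb1* (19.4 ± 1.35), *Cdkn1a* (15.7 ± 19.2), *Trp53* (9.21 ± 1.06), *Mdm2* (8.58 ± 1.17), *Glb1* (7.37 ± 1.40), *Lmnb1* (2.35 ± 0.903), *Cdkn2b* (0.495 ± 0.327) and *Cdkn2a* (0.428 ± 0.425). The ranges of its neighbours overlapped except at the steps from *Glb1* to *Lmnb1* and from *Lmnb1* to *Cdkn2b*. The p21, p53 and cyclin D1 transcripts were therefore at several RPKM or more in both tissues, while the p16Ink4a and p19Arf gene was below 1. With the length of the longest transcript in place of the exon union, *Hmgb1* reached 34.3 RPKM in shNT liver and 31.6 in shNT kidney and passed *Ccnd1*, at 30.3 and 30.0.

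**Figure D1:**
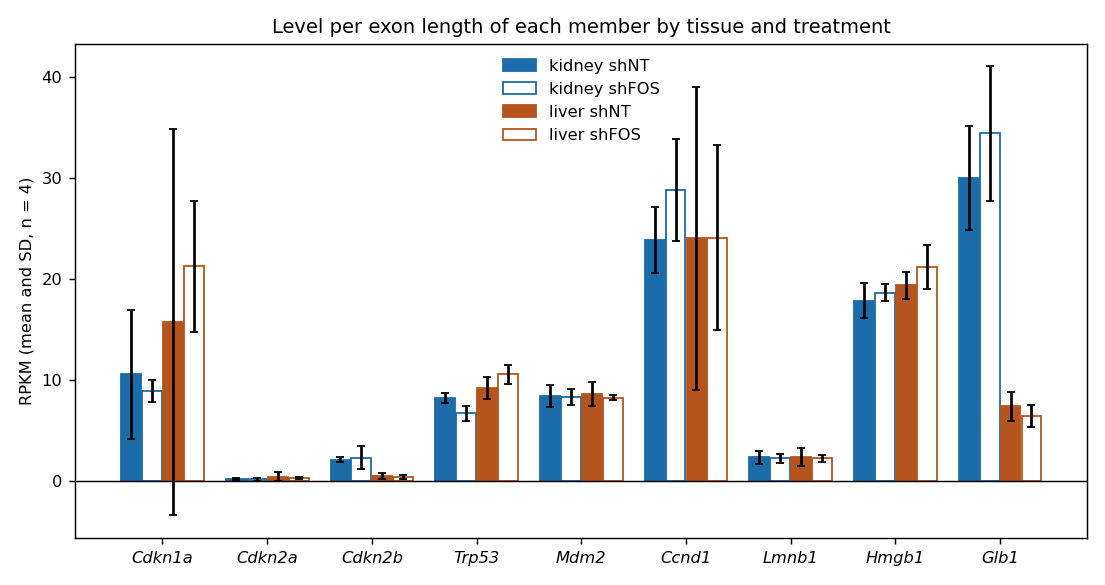
RPKM (vertical axis) of the 9 genes in shNT (filled bars) and shFOS (open bars) kidney (blue) and liver (orange), bars showing the mean and lines the SD of 4 libraries. *Glb1* is at 30.0 in shNT kidney and 7.37 in shNT liver, and the long lines of *Cdkn1a* and *Ccnd1* in shNT liver (SD 19.2 and 14.99) come from groups with 1 library far from the rest.

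Which members differ between the tissues was asked in the shNT libraries, in one edgeR fit of all 16 libraries. *Glb1* was higher in kidney than in liver by a log2 fold change of 2.02 (SE 0.19, edgeR adjusted p = 9.4e-08) and *Cdkn2b* by 2.07 (SE 0.48, edgeR adjusted p = 0.00136). *Cdkn2b* did not pass the filter on low counts in liver alone and entered this fit through its kidney counts, so that it had to be higher in kidney, and its value is a description. These were 2 of the 8 members tested, against 64.7% of the 15421 genes tested, 34.5% higher and 30.2% lower in kidney. The call of *Glb1* was made under each of the 20 alternatives. The other 6 members had log2 differences between -0.58 (*Cdkn1a*, SE 0.60) and -0.01 (*Ccnd1*, SE 0.46), none of them called, with intervals that for these 2 genes run from -1.84 to 0.69 and from -0.99 to 0.97. Relative to the median of all genes *Cdkn1a* was at -0.63, at 0.67 without liver shNT number 4 and at -1.14 without kidney shNT number 4. *Ccnd1* was at -0.06, at -0.46 without liver shNT number 4 and at 0.20 without liver shNT number 1. *Trp53* differed by -0.17 (95% interval -0.39 to 0.06), *Hmgb1* by -0.12 (-0.32 to 0.09), *Mdm2* by -0.03 (-0.27 to 0.20) and *Lmnb1* by -0.02 (-0.59 to 0.56). *Cdkn2a* was left out of this fit by the filter on low counts. The zero of this comparison depends on the scaling. The median log2 difference of all genes was 0.05 with TMM factors, 0.21 with upper-quartile factors, 0.67 after a correction for GC content and 1.098 with total counts alone, and with total counts 7 members were called higher in kidney. Relative to that median *Trp53*, *Mdm2*, *Hmgb1* and *Lmnb1* were then at -0.23, -0.09, -0.17 and -0.07, and *Glb1* stayed at or above 1.90 under all these scalings.

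The CPM of single libraries, scaled within each tissue, showed the members to differ widely in their spread.

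**Figure D2:**
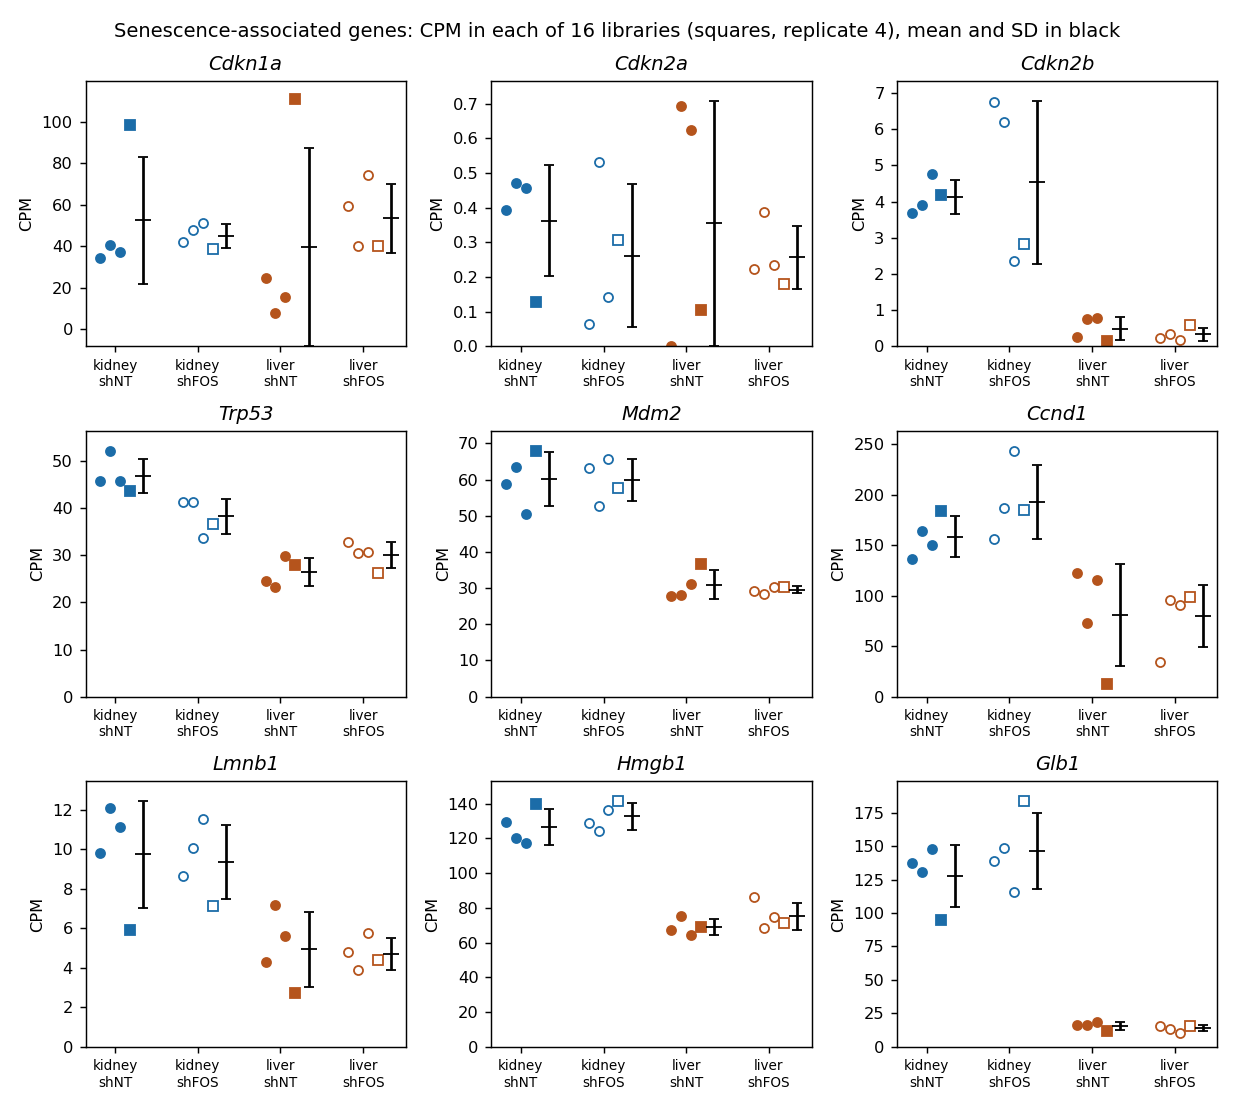
CPM (vertical axes, 1 panel a gene) in each library of the 4 groups (horizontal axes), with shNT filled, shFOS open, replicate 4 as squares and the mean and SD of 4 libraries in black. The shNT replicate 4 library is the highest point for *Cdkn1a* in both tissues (98.4 and 110.8 CPM) and the lowest for *Ccnd1* in liver (12.5 CPM), and *Trp53* in kidney is the panel in which shFOS lies wholly below shNT.

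*Cdkn1a*, the p21 gene, was at 34.2, 40.4, 37.3 and 98.4 CPM in shNT kidneys and at 42.1, 47.6, 51.1 and 38.4 in shFOS kidneys. The shNT library numbered 4 lay far above its group, and the shFOS values fell within the range that this library opened. The log2 fold change was -0.23 (SE 0.32, 95% interval -0.95 to 0.49, edgeR adjusted p = 0.648), and it turned to 0.27 when that library was left out (adjusted p = 0.158). In liver *Cdkn1a* was at 24.4, 7.73, 15.4 and 110.8 CPM in shNT and at 59.4, 39.8, 74.3 and 39.9 in shFOS. The same shNT number was again the highest library, and without it the shFOS libraries all lay above the shNT ones. The log2 fold change was 0.43 (SE 0.70, 95% interval -1.15 to 2.01, edgeR adjusted p = 0.893) with all libraries and 1.74 without that one (adjusted p = 0.573), which did not pass the threshold either. With that library left out the liver groups did not overlap for 2 members, *Cdkn1a* (higher in shFOS) and *Glb1* (lower), against 6.79% of 13144 genes. It held the highest *Cdkn1a* and the lowest *Glb1* (11.4 CPM) of the shNT livers. Leaving it out thus made both separations, and the count is a description. The coefficient of variation (CV) of *Cdkn1a* over shNT livers was 121%, and 0.708% of genes had a larger one. In shNT kidneys it was 58.4%, exceeded by 3.99% of genes, and in shFOS it was 12.7% in kidney and 31.3% in liver.

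*Trp53*, which encodes p53, was at 45.8, 52.2, 45.9 and 43.6 CPM in shNT kidneys and at 41.5, 41.3, 33.8 and 36.6 in shFOS kidneys. Every shFOS library was below every shNT library, as held for 1 of the 8 members tested and for 8.04% of the 14892 genes tested (17.2% had groups without overlap in either direction). Without the shNT library numbered 4 this was still 1 of 8 members, against 12.6% of genes (25.3% in either direction). The means were 46.9 ± 3.71 and 38.3 ± 3.76 CPM (SD, n = 4), a log2 fold change of -0.29 (SE 0.10, 95% interval -0.51 to -0.07). The unadjusted p of edgeR was 0.0142 and the adjusted p 0.0860, so that the difference did not pass the threshold. It was called when the shFOS library numbered 1 was left out (log2 fold change -0.37, edgeR adjusted p = 0.0287), a fit in which 27.8% of all genes were called. In liver *Trp53* was at 24.5, 23.4, 29.8 and 28.1 CPM in shNT and at 32.8, 30.5, 30.8 and 26.3 in shFOS. There 3 of 4 shFOS libraries were above all shNT libraries, and the log2 fold change was 0.19 (SE 0.12, 95% interval -0.07 to 0.44, edgeR adjusted p = 0.747).

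*Mdm2*, the ubiquitin ligase that degrades p53 and is itself a p53 target, was at 58.8, 63.4, 50.6 and 67.9 CPM in shNT kidneys and at 63.2, 52.7, 65.7 and 57.8 in shFOS kidneys. In liver it was at 27.8, 28.2, 31.2 and 36.7 CPM in shNT and at 29.3, 28.4, 30.4 and 30.3 in shFOS. The groups overlapped in both tissues, with log2 fold changes of -0.01 (95% interval -0.26 to 0.24) and -0.07 (-0.31 to 0.18). Without shNT number 4 these values were 0.06 and 0.01. The CV of *Mdm2* over shFOS livers was 3.13%, smaller than that of 97.8% of the genes tested there. In the other groups it was 9.70% to 13.2%.

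*Ccnd1*, the cyclin D1 gene, was at 136.4, 164.3, 149.8 and 183.4 CPM in shNT kidneys and at 155.8, 187.0, 243.5 and 184.5 in shFOS kidneys. The shFOS libraries numbered 2, 3 and 4 were above all shNT libraries, and the log2 fold change was 0.28 (SE 0.15, 95% interval -0.05 to 0.61, edgeR adjusted p = 0.220). Without the third shFOS library it was 0.15. In liver *Ccnd1* was at 122.0, 72.5, 115.3 and 12.5 CPM in shNT and at 34.6, 96.2, 90.5 and 98.2 in shFOS. Each liver group thus held 1 library far below its others, number 4 in shNT and number 1 in shFOS, and the means were close (80.6 ± 50.4 and 79.9 ± 30.4 CPM, log2 fold change -0.01, 95% interval -1.34 to 1.31). That interval spans more than a doubling in either direction, so that a change of this size could not be detected. The difference was -0.38 without the shNT library and 0.24 without the shFOS library. The CV was 62.6% in shNT livers and 38.0% in shFOS livers, exceeded by 7.01% and 8.77% of genes.

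The Ink4 locus was read at low counts. *Cdkn2a* had 6, 7, 7 and 2 reads in shNT kidneys and 1, 8, 2 and 4 in shFOS kidneys. In liver it had 0, 12, 12 and 2 reads in shNT and 4, 7, 4 and 3 in shFOS. The libraries of the treatments overlapped in both tissues, and 6 of the 16 libraries held no more than the 3 counts that a count of 0 allows, which is 0.193 to 0.230 CPM in kidney and 0.156 to 0.198 in liver. Pooled over a group the level was 0.361 CPM in shNT kidneys (exact Poisson 95% interval 0.226 to 0.547), 0.260 in shFOS kidneys (0.146 to 0.430), 0.368 in shNT livers (0.241 to 0.540) and 0.259 in shFOS livers (0.153 to 0.409). These intervals and limits cover counting error only and leave out the spread between libraries, which in shNT livers ran from 0 to 12 reads. PCR copies of a molecule could not be recognised in these reads either. The filter on low counts removed the gene from the fits, and the exact permutation test over 70 assignments gave p = 0.457 in kidney and p = 0.571 in liver (two-sided, smallest possible 0.0286). The counts do not separate p16Ink4a from p19Arf, whose transcripts start 12461 bases apart and share exons.

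*Cdkn2b*, whose transcript starts 16386 bases from the nearer *Cdkn2a* start, had more reads in kidney, with 56, 58, 73 and 65 in shNT and 105, 93, 33 and 37 in shFOS. As CPM the shNT kidneys held 3.68, 3.91, 4.76 and 4.19 and the shFOS kidneys 6.75, 6.19, 2.36 and 2.84. The shFOS group was thus divided, with 2 libraries above and 2 below all shNT libraries, and its CV of 49.7% stood beside 11.2% in shNT. The log2 fold change of 0.14 (SE 0.34, 95% interval -0.64 to 0.91, edgeR adjusted p = 0.809) became -0.15 without shFOS number 1 and -0.05 without number 2. In liver *Cdkn2b* had 4, 13, 15 and 3 reads in shNT and 4, 6, 3 and 10 in shFOS, or pooled levels of 0.496 CPM (0.345 to 0.690) and 0.331 (0.210 to 0.496). These intervals again leave out the spread between libraries. The groups overlapped, and the exact two-sided permutation test gave p = 0.371.

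*Lmnb1*, which encodes lamin B1 of the nuclear envelope, was at 9.80, 12.1, 11.1 and 5.93 CPM in shNT kidneys and at 8.61, 10.04, 11.5 and 7.14 in shFOS kidneys. In liver it was at 4.29, 7.15, 5.62 and 2.70 CPM in shNT and at 4.77, 3.89, 5.75 and 4.37 in shFOS. The shNT library numbered 4 was the lowest of all 8 in each tissue, and log2 fold changes were -0.06 (95% interval -0.60 to 0.48) in kidney and -0.07 (-0.72 to 0.58) in liver. Without that library they were -0.24 and -0.29, with edgeR adjusted p of 0.384 and 0.828.

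*Hmgb1*, a chromatin protein that acts as an alarm signal outside the cell, was at 129.2, 120.1, 117.1 and 139.6 CPM in shNT kidneys and at 128.8, 124.1, 136.4 and 141.5 in shFOS kidneys. In liver it was at 67.5, 75.3, 64.2 and 69.0 CPM in shNT and at 86.0, 68.2, 74.7 and 71.4 in shFOS. The groups overlapped in both tissues. The log2 fold changes were 0.07 (95% interval -0.12 to 0.26) and 0.12 (-0.12 to 0.36). Direction in kidney depended on the scaling, with -0.03 under total counts and -0.20 after the GC correction.

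*Glb1*, the lysosomal beta-galactosidase gene, was at 137.3, 130.3, 147.9 and 94.4 CPM in shNT kidneys and at 138.8, 148.5, 115.4 and 183.8 in shFOS kidneys. In liver it was at 16.5, 16.6, 18.5 and 11.4 CPM in shNT and at 15.4, 13.2, 10.6 and 15.3 in shFOS. The shNT library numbered 4 was again the lowest of its group in both tissues. The log2 fold changes were 0.20 in kidney (SE 0.17, 95% interval -0.18 to 0.59, edgeR adjusted p = 0.444) and -0.21 in liver (SE 0.18, 95% interval -0.61 to 0.19, edgeR adjusted p = 0.789). Leaving out single libraries took the kidney value to 0.07 (without shFOS number 4) and 0.08 (without shNT number 4), and the liver value to -0.35 (without shNT number 4) and -0.11 (without shFOS number 3).

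Over the 9 members, 8 were tested in kidney and 7 in liver, and edgeR called 0 in either tissue, where it called 0% of all genes tested. At an unadjusted p under 0.05 edgeR had 1 member in kidney (*Trp53*, lower), against 32% of all genes (14.9% lower), and 0 in liver, against 6.82%. In liver 0 of the 7 had groups without overlap, against 4.31%. DESeq2 called 0 members in each, against 17.9% of genes in kidney and 0.274% in liver. The median log2 fold change of the tested members was 0.03 in kidney, with 4 values above 0 and 4 below, and -0.01 in liver, with 3 above and 4 below. Intervals for *Mdm2* and *Hmgb1* reached at most 0.36 from 0 on the log2 scale in both tissues, while those of *Cdkn1a*, *Ccnd1* and *Lmnb1* in liver reached beyond 0.5 in both directions.

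**Figure D3:**
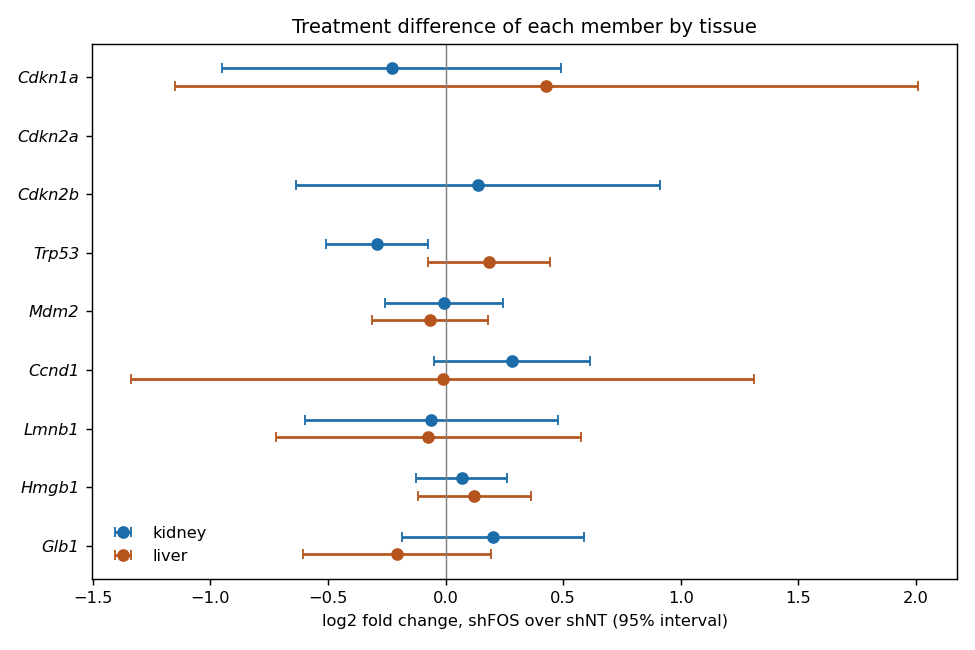
Log2 fold change of shFOS over shNT (horizontal axis) for each member tested, in kidney (blue) and liver (orange), with 95% intervals from the edgeR fit of 8 libraries. *Trp53* in kidney (-0.29, interval -0.51 to -0.07) has the one interval that leaves out 0, before adjustment, and *Cdkn1a* in liver the widest (-1.15 to 2.01).

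Whether the treatment difference of a member differed between tissues was tested by the interaction term, kidney minus liver. Of 8 members tested edgeR called 0, as of all 15421 genes (0%), and 1 had an unadjusted p under 0.05, against 16.1%. This was *Trp53*, with -0.49 (SE 0.15, 95% interval -0.81 to -0.17, unadjusted p = 0.00527, edgeR adjusted p = 0.189), which combined the lower kidney and the higher liver mean. *Cdkn1a* had -0.68 (SE 0.84), which became -2.01 without liver shNT number 4 (edgeR adjusted p = 0.164) and -0.13 without kidney shNT number 4. *Glb1* had 0.39 (SE 0.25, edgeR adjusted p = 0.467), *Cdkn2b* 0.69 (SE 0.70) and *Ccnd1* 0.27 (SE 0.65). The value of *Cdkn2b* ran from 0.36 without liver shNT number 3 to 1.12 without liver shFOS number 4, and that of *Ccnd1* from 0.0049 without liver shNT number 1 to 0.63 without liver shNT number 4. *Mdm2*, *Hmgb1* and *Lmnb1* lay between -0.07 and 0.04.

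**Figure D4:**
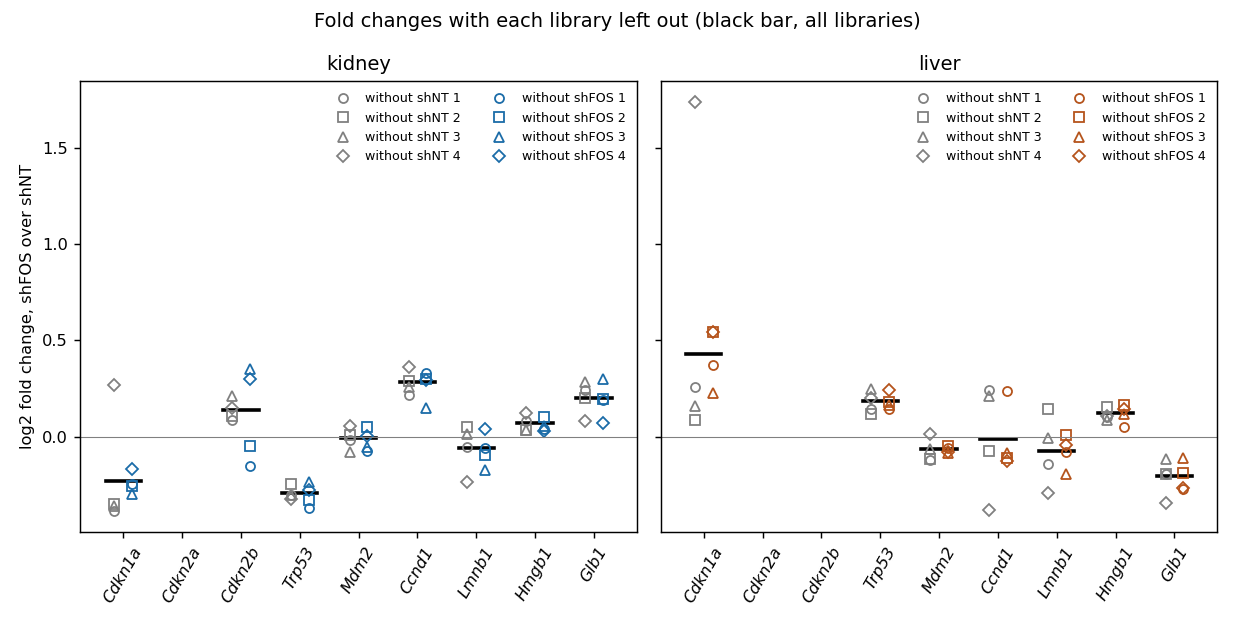
Log2 fold change of shFOS over shNT (vertical axis) for each member in kidney (left) and liver (right), with all libraries (black bar) and with each library left out in turn (symbols, shNT in grey and shFOS in colour). *Cdkn1a* without shNT number 4 moves to 0.27 in kidney and 1.74 in liver, whereas *Trp53* in kidney stays between -0.37 and -0.24.

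The genes whose log2 CPM, centred within each tissue, ran closest to those of *Cdkn1a* and *Ccnd1* over the 16 libraries were found among 12726 genes, as a description. For *Cdkn1a* they were *Ptpru*, a receptor tyrosine phosphatase gene, *Eyelinc18* and *Zfp185*, with root mean square differences of 0.52, 0.53 and 0.53 on the log2 scale, where *Cdkn1a* itself departed from its tissue means by 0.89 and the median gene from *Cdkn1a* by 0.92. *Ptpru* was at 1.75 CPM in the shNT liver numbered 4 and at 0.264 to 0.729 in the other shNT livers. *Eyelinc18* and *Zfp185* were at 0.404 to 0.726 CPM in those other livers. Such values rest on few reads, since a count of 0 allows 0.156 to 0.198 CPM there. For *Ccnd1* they were *Gm14057*, *Chac2* and *Gdf15*, a stress-induced cytokine gene, at 0.39, 0.41 and 0.43. *Chac2* was at 7.67 CPM in the shNT liver numbered 4 and at 24.2 to 33.5 in the other shNT livers. *Gm14057* was at 0.106 CPM in the shNT liver numbered 4, below the 0.159 that a count of 0 allows there. The points share their libraries, and with them depth, tissue make-up and the shNT number 4 that stood apart.

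The wider pathways were read from 7 lists compiled from general knowledge, 165 genes in all without the members. Adjusted calls by edgeR numbered 0 in each list and tissue, so the counts that follow are of genes with an unadjusted p under 0.05, set against 32% of genes in kidney and 6.82% in liver, and no gene named here passed the adjusted threshold of edgeR in the fit of its tissue's 8 libraries. The smallest edgeR adjusted p of any gene in the kidney fit of 8 libraries was 0.0650, and several genes named below share it. In the fit of all 16 libraries, which called 6.4% of genes in kidney, edgeR called 1 p53 target, 3 p53 regulators, 1 cell cycle regulator and 1 secretory factor there, among them *Mdm4* (edgeR adjusted p = 0.0270), *Hipk2* (0.0381), *Rbl2* (0.0497) and *Plat* (0.0373). In that fit edgeR did not call the other list genes named below for kidney, among them *Gadd45a* (edgeR adjusted p = 0.518), *Btg2* (0.637), *Cxcl1* (0.403) and *Cdc25a* (0.258). Without the kidney shFOS library numbered 1, where 27.8% of all genes were called, it called 8 of 29 p53 targets, 5 of 12 p53 regulators, 6 of 23 cell cycle regulators, 1 of 25 proliferation genes, 5 of 40 secretory factors, 2 of 13 lamina and HMG genes and 3 of 14 lysosomal genes. Among the marker sums of all cell types read here, only those of tubule and endothelium did not overlap between the kidney groups. Of single genes tested in kidney 17.2% did not overlap. The tubule markers summed to 14900 to 17180 CPM in shFOS and 11040 to 14460 in shNT kidneys, the endothelial markers to 221.6 to 264.9 and 140.4 to 202.9, and the podocyte markers, which overlapped, to 116.3 to 303.0 and 79.8 to 156.4. Their part in the kidney values of the members and lists was not tested. DESeq2, which called 17.9% of genes in kidney, called 3 higher and 0 lower in the lysosomal list, 2 and 2 of the secretory factors, 0 and 2 of the lamina and HMG genes, 2 and 4 of the cell cycle regulators, 2 and 1 of the p53 regulators and 0 of the proliferation genes there, and 0 in every list in liver. Of 29 p53 targets in kidney 3 were higher and 5 lower (27.6%), with a median log2 fold change of -0.11 where that of all genes was 0.00. The list median was -0.001 without shNT number 4. It was -0.029 with the replicate block, which within a tissue matches libraries by numbers that did not pair between treatments. *Gadd45a*, a growth arrest gene, was at 24.4 to 29.8 CPM in shNT and 19.7 to 21.2 in shFOS (log2 fold change -0.41, edgeR adjusted p = 0.0650), and the antiproliferative *Btg2* at 48.3 to 58.2 and 40.9 to 45.7 (-0.30, adjusted p = 0.0670). DESeq2 called 6 of these 29, 1 higher and 5 lower. In liver 2 of 28 were lower, *Plk3* (-0.37) and *Sesn2* (-0.53), and 0 higher. Among 12 p53 regulators in kidney 2 were higher and 1 lower. *Mdm4*, the partner of MDM2 in restraining p53, was at 99.7, 94.6, 95.03 and 133.5 CPM in shNT and at 81.6, 32.9, 40.3 and 40.3 in shFOS (-1.12, SE 0.27, edgeR adjusted p = 0.0650). The p53 kinase *Hipk2* was at 11.1, 9.44, 11.2 and 9.73 CPM in shNT and at 12.0, 24.2, 26.6 and 19.9 in shFOS (0.99, SE 0.23, edgeR adjusted p = 0.0650). For both genes the shFOS library numbered 1 lay nearest to the shNT libraries without overlapping them. In liver 0 of 11 regulators had an unadjusted p under 0.05, and the smallest were those of *Rchy1* (-0.16) and *Trp53bp1* (0.23).

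Among CDK inhibitors, cyclins, RB family genes and repressors of the Ink4 locus 2 of 23 were higher and 4 lower in kidney, with a median of 0.00. The phosphatase gene *Cdc25a* was at 16.3 to 17.7 CPM in shNT and 20.6 to 22.3 in shFOS (0.32, edgeR adjusted p = 0.0658), and *Rbl2*, an RB family gene, at 55.7 to 67.2 and 64.5 to 85.3 (0.42, edgeR adjusted p = 0.0650). In liver 1 of 23 was lower, *E2f4* (-0.35), *Cdc25a* had -0.40 there, and the median was -0.11. Of 25 proliferation genes in kidney 1 was higher, *Pcna* (0.30), and 2 were lower, among them *Mcm7* (-0.36), both coding for replication proteins. The list median of -0.16 became -0.42 without shNT number 4 and 0.11 without shNT number 3, so that its direction rests on single libraries. It was -0.005 with the replicate block. In liver 0 of 23 had an unadjusted p under 0.05, with *Aurka* at 0.61 and the proliferation marker *Mki67* at -0.46.

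Of 40 secretory factors tested in kidney 2 were higher and 5 lower (median -0.06). *Plat*, the tissue plasminogen activator gene, was at 54.1 to 73.1 CPM in shNT and 86.5 to 108.4 in shFOS (0.64, edgeR adjusted p = 0.0650), and the chemokine gene *Cxcl1* at 2.15 to 4.18 and 1.14 to 1.48 (-1.25, edgeR adjusted p = 0.0650). In liver 3 of 38 were higher and 6 lower, 23.7% against 6.82% of all genes, with a median of -0.20. Both named genes there code for proteins that bind insulin-like growth factors. *Igfbp6* was at 0.990 to 1.54 CPM in shNT and 2.19 to 3.17 in shFOS (1.03, edgeR adjusted p = 0.685), and *Igfbp7* at 42.8 to 76.2 and 79.0 to 101.9 (0.61, edgeR adjusted p = 0.702). The count depended on single libraries, from 4 of 39 without shFOS number 1 (10.3%, against 4.17% of all genes in that fit) to 12 of 38 without shNT number 1 (31.6% against 9.34%), with 6 of 39 without shNT number 4, 6 of 39 without shFOS number 3 and 5 of 39 without shFOS number 4, and it was 4 of 38 with the replicate block. The median ran from -0.32 without shFOS number 2 to -0.03 without shNT number 3. Of 13 genes of the nuclear lamina and HMG proteins 3 were lower in kidney, *Banf1* (-0.33) and *Hmgn2* (-0.28) among them, and 0 in liver, where *Emd* had -0.21 and *Lmna* -0.21. Of the 14 lysosomal glycosidases and partners of *Glb1* 4 were higher and 0 lower in kidney (median 0.16, and 0.10 without shNT number 4). *Lamp2*, a lysosomal membrane protein gene, was at 641.9 to 745.2 CPM in shNT and 731.3 to 1191 in shFOS (0.54, edgeR adjusted p = 0.0715). In liver 2 were lower and 0 higher, *Ctsa* (-0.38) and *Neu1* (-0.27), with a median of -0.09.

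**Figure D5:**
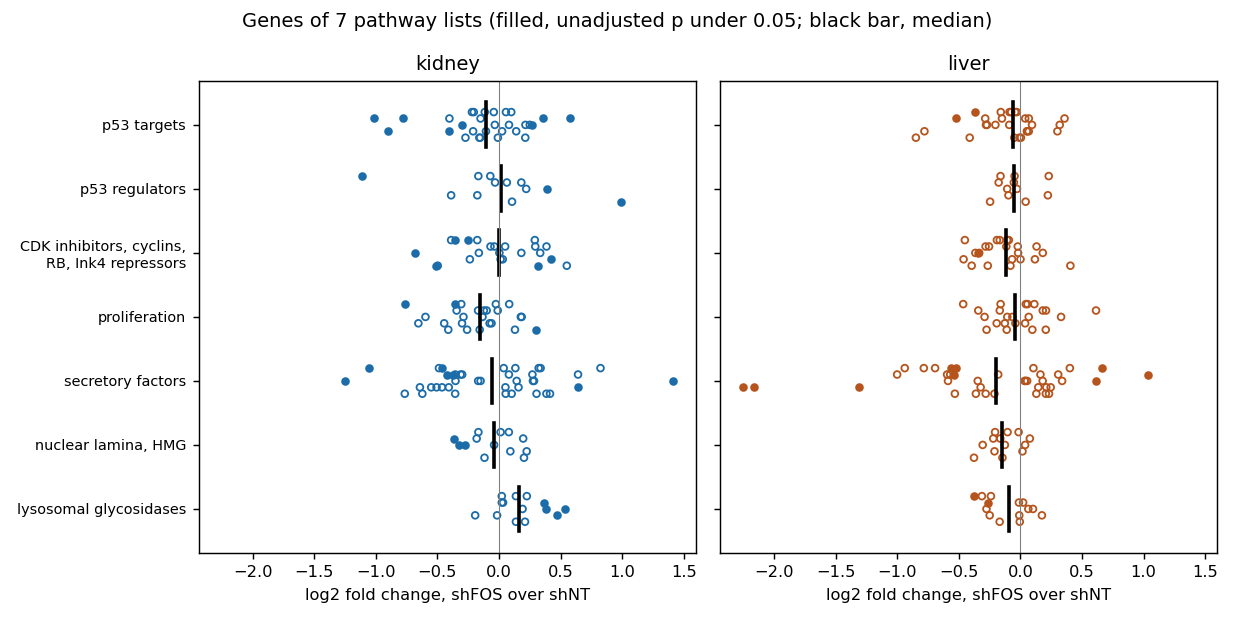
Log2 fold change of shFOS over shNT (horizontal axis) for each tested gene of the 7 lists (rows) in kidney (left) and liver (right), filled where the unadjusted p of edgeR is under 0.05 and with the list median as a black bar. The lysosomal list has 12 of 14 kidney values above 0 (median 0.16, and 0.10 without shNT number 4). The proliferation list has 20 of 25 kidney values below 0 (median -0.16, but 0.11 without shNT number 3). In liver 18 of 23 cell cycle regulators and 10 of 13 lamina and HMG genes are below 0.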

How the data were processed

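Total RNA of kidney and liver of aged mice was sequenced, with 4 libraries in each of 4 groups. The authors trimmed reads with Trimmomatic 0.39, aligned them to mm10 with HISAT2 2.2.1 and counted them per gene, without strand, with HTSeq 0.12.4, and deposited raw counts, 1 table a library, whose 5 closing summary lines were left out. Reads on no gene made up 13.4% to 26.7% of a library. Of the 24984 symbols 98.3% matched GENCODE M21, which supplied positions, lengths and GC content.

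Each tissue was fitted alone with edgeR 4.0.16 in R 4.3.3 (filterByExpr, TMM, robust dispersion, quasi-likelihood test) with Benjamini-Hochberg adjustment over all genes tested and calls at 0.05. The interaction and the tissue contrast came from one fit of all 16 libraries. Standard errors were the log2 fold change over the square root of F. CPM were TMM-scaled within tissue, and RPKM over all libraries by exon union length. Members removed by the filter were tested by exact permutation of CPM. Alternatives were DESeq2 1.42.0, upper-quartile factors, total counts, 2 other filters, other quasi-likelihood settings, a GC correction (lowess, span 0.3), the replicate block and each library left out. Leaving out number 4 of shNT in both tissues was added after the data were seen.

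Named genes are all members, *Fos*, the 2 genes of each list with the smallest p in each tissue and the 3 genes most like *Cdkn1a* and *Ccnd1*. A list gene covered by this choice is not reported here. The members and lists were chosen with earlier results of these data known.

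Labels do not say that a number marks a mouse, nor that replicates are separate animals, so p-values measure the spread between these libraries. Deviations of kidney and liver libraries of one number correlated at 0.115 to 0.326 in shNT, every pair over 0.1, and at 0.039 to 0.147 in shFOS. Unlike numbers in shNT also passed 0.1, kidney 1 with liver 3 (0.137) and kidney 2 with liver 3 (0.174), while the others ran from -0.341 to 0.098. These correlations thus do not settle whether a number pairs the tissues. The main tissue contrast was fitted without pairing, and numbers paired the tissues, in both treatments, only in the replicate block. Between treatments the numbers did not pair (-0.238 to 0.113), so that the replicate block within a tissue matched libraries without such a basis. No pair of libraries of a group agreed within sampling noise (smallest chi-square per degree of freedom 7.17). The fit was tested on counts simulated from the kidney libraries, where edgeR recovered 63% of 200 genes changed 2-fold among 14892, with 7 others called. Those counts were drawn for each gene alone, without a library that stood apart. The kidney differences of members were smaller than 2-fold (fold 1.216 for *Ccnd1*, 0.817 for *Trp53*). The 63% thus does not say how often differences of that size would be called.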

Additional observations from a re-analysis of the deposited data

Results flagged for a closer look

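In groups of 4 libraries, a value whose gap to its nearest neighbour takes up most of the group's range was marked (Dixon's test, 95% level). Among 36 groups, 9 genes in 4 groups each, 3 were marked, where a rate of 1 in 20 would give 1.8. That figure takes the values as normal and the groups as independent. The genes share their libraries, the shNT number 4 that stood apart among them, so 1.8 is a rough guide only. *Cdkn1a* was highest in the shNT kidney numbered 4, at 98.42 CPM against 34.18 to 40.37 in the other shNT kidneys. It was also highest in the shNT liver numbered 4, at 110.8 CPM against 7.731 to 24.41. These 2 libraries carry the same number and the raised neutrophil marker sums given above, whose part in the value was not tested. *Ccnd1* was lowest in the shFOS liver numbered 1, at 34.57 CPM against 90.53 to 98.23 in the other shFOS livers. The neutrophil marker sum of that library was 27.7 CPM, against 3.47 to 6.75 in the other shFOS livers, and its part in the value was not tested. *Ccnd1* in the shNT liver numbered 4, at 12.5 CPM, was not marked by the same test.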

How the results depend on the processing

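In kidney and liver 0 genes were called by edgeR. Leaving out single libraries moved the kidney count between 0 and 4173 genes (4173 without shFOS number 1, 3 without shNT number 4) and that of members between 0 and 1, and the interaction count between 0 and 1230 (without kidney shFOS number 1). With all libraries DESeq2 called 2663 genes in kidney, 36 in liver and 282 for the interaction, and the fit of 16 libraries called 987 in kidney. For kidney against liver 2 members were called, and 5 after the GC correction, 6 with the replicate block and GC correction and 7 with total counts. The replicate block alone changed no member call in any comparison. The cause of these differences was not tested.

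For kidney against liver *Trp53*, *Mdm2*, *Hmgb1*, *Lmnb1* and *Ccnd1* turned from uncalled values below 0 to calls above 0 with total counts, as did *Trp53*, *Mdm2* and *Hmgb1* after the GC correction and these and *Lmnb1* with block and GC correction, where the median of all genes moved as well. The values whose direction turned below passed no threshold in either form. In kidney *Mdm2* became 0.0080 (log2 fold change) without a filter on low counts, and *Hmgb1* -0.029 with total counts, -0.196 with the GC correction and -0.200 with block and GC correction. In liver *Ccnd1* became 0.0049 with upper-quartile factors, 0.020 with total counts, 0.218 with the replicate block, 0.195 with block and GC correction and 0.0024 in the fit of 16 libraries. For the interaction *Mdm2* became -0.043 with total counts, -0.019 with the GC correction and -0.041 with block and GC correction, *Lmnb1* -0.052 with upper-quartile factors, -0.094 with total counts and -0.041 with the block, and *Hmgb1* 0.016 without number 4 of shNT in both tissues. For kidney against liver, relative to the median of all genes, *Cdkn1a* became 0.179 without number 4 in both tissues and *Ccnd1* 0.211 with the block and 0.190 with block and GC correction.

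With each library left out in turn, kidney log2 fold changes ran from -0.389 to 0.267 for *Cdkn1a*, -0.152 to 0.351 for *Cdkn2b*, -0.082 to 0.057 for *Mdm2* and -0.235 to 0.051 for *Lmnb1*. In liver they ran from -0.122 to 0.012 for *Mdm2*, -0.383 to 0.243 for *Ccnd1* and -0.292 to 0.145 for *Lmnb1*. For the interaction the ranges were -0.052 to 0.148 for *Mdm2*, -0.231 to 0.207 for *Lmnb1* and -0.114 to 0.022 for *Hmgb1*. For kidney against liver, relative to the median, they were -1.14 to 0.669 for *Cdkn1a*, -0.458 to 0.204 for *Ccnd1* and -0.311 to 0.154 for *Lmnb1*. The CPM difference of *Cdkn2a* in liver ran from -0.217 to 0.013. At these depths *Cdkn2a* in both tissues and *Cdkn2b* in liver stood too near the limit of a count of 0 for a fit.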
